A study of Homo sapiens with 2 samples.

Results

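Mutually exclusive exon pairs are events in which 1 form of a transcript carries an upstream exon and the other form carries a downstream exon in its place. Every row of the event tables of this type was used, with no further choice. There were 3320 such rows of 78090 events of 5 types in all, 2009 of 42783 in the DCRT-KO library and 1311 of 35307 in the WT library. Both libraries are labelled AC16, an established line of human cells that the labels call cardiomyocyte. DCRT-KO cells lack the long non-coding RNA DCRT after CRISPR-Cas9 editing, and WT cells were the unedited line; no treatment, time point or further allele is given for either. There was 1 library of each genotype, and whether the knockout line is 1 clone is not stated in the labels. That both come from the same line rests on the labels and was not tested; the event tables named 1 isoform of COL1A1, a fibroblast collagen, in DCRT-KO and 772 in WT, and this bears on every value set between the libraries. The study asked whether loss of DCRT, which its title ties to dilated cardiomyopathy and to PTBP1, a regulator of splicing, goes with other splicing events.

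In this kind of splicing the spliceosome joins a shared upstream exon to 1 of a pair of neighbouring exons and omits the other. Many textbook pairs arose by duplication of an exon, so that each copy encodes a version of the same protein segment. Choice between them is set by RNA-binding proteins on the surrounding introns, PTBP1 among them, and changes between tissues. In heart and muscle, tropomyosins, alpha-actinins, MEF2 factors and the phosphate carrier SLC25A3 are known examples. In pyruvate kinase PKM, the upstream exon gives the M1 enzyme of muscle and brain, while the downstream exon gives the M2 enzyme of proliferating cells, and PTBP1 is known to repress the M1 exon.

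The sequences below show exon pairs that both libraries listed and whose exons have equal length. They come from the GENCODE v29 transcripts on GRCh38 and run 5′ to 3′. Capitals mark the positions at which both exons of a pair carry the same base when they are laid over each other without gaps. The PKM exons lie at chr15:72203022-72203188 and chr15:72202454-72202620 on the minus strand, have 167 bases each and match at 105 positions (62.9%).
PKM upstream exon: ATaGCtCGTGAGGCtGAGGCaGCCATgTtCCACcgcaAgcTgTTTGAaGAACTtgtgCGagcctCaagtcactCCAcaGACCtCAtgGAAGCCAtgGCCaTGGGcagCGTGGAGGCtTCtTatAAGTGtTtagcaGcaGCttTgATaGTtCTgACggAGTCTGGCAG
PKM downstream exon: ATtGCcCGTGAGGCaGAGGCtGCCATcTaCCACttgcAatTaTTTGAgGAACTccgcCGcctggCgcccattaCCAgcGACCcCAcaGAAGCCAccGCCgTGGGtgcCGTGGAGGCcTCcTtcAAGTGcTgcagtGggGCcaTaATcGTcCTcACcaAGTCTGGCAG

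Exon pairs of cytoskeletal and membrane-shaping proteins are shown for the same reason. ACTN4, an alpha-actinin that crosslinks actin filaments, has its exons at chr19:38710257-38710342 and chr19:38711276-38711361 on the plus strand, and they match at 65 of 86 positions (75.6%). TPM2 encodes a tropomyosin that lies along actin filaments. Its exons at chr9:35685064-35685139 and chr9:35684732-35684807 on the minus strand match at 40 of 76 positions (52.6%). DNM2, the dynamin that cuts vesicles from membranes, has exons of 139 bases at chr19:10796061-10796199 and chr19:10797380-10797518 on the plus strand, with 97 matching positions (69.8%).
ACTN4 upstream exon: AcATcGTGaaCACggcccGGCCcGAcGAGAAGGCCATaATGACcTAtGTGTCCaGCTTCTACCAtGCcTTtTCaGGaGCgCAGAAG
ACTN4 downstream exon: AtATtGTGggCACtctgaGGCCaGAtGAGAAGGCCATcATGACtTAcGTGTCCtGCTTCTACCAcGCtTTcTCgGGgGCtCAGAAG
TPM2 upstream exon: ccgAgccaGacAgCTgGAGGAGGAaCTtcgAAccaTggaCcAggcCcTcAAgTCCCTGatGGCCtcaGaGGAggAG
TPM2 downstream exon: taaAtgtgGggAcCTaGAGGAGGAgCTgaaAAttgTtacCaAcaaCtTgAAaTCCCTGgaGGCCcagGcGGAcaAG
DNM2 upstream exon: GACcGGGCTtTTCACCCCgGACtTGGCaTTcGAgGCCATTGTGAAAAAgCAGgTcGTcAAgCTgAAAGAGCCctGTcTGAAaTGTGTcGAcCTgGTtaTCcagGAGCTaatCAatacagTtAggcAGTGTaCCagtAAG
DNM2 downstream exon: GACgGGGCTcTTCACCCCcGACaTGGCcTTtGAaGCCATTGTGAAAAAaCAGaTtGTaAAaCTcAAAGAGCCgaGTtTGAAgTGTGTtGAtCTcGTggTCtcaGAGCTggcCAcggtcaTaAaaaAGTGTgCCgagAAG

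Further pairs with equal lengths belong to the secretory pathway. CALU, a calcium-binding protein of the endoplasmic reticulum, has exons of 194 bases at chr7:128754262-128754455 and chr7:128754529-128754722 on the plus strand, with 127 matching positions (65.5%). P4HA1 is a catalytic subunit of prolyl 4-hydroxylase, which modifies collagen. Its exons of 71 bases at chr10:73044981-73045051 and chr10:73043887-73043957 on the minus strand match at 43 positions (60.6%). RAB6A, a small GTPase of the Golgi, has exons of 106 bases at chr11:73718785-73718890 and chr11:73718613-73718718 on the minus strand, with 75 matching positions (70.8%).
CALU upstream exon: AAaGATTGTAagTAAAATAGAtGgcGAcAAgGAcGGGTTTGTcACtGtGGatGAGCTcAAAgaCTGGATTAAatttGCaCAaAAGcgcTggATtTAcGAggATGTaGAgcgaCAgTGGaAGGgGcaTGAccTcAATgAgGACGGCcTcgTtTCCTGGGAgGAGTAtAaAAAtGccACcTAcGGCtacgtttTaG
CALU downstream exon: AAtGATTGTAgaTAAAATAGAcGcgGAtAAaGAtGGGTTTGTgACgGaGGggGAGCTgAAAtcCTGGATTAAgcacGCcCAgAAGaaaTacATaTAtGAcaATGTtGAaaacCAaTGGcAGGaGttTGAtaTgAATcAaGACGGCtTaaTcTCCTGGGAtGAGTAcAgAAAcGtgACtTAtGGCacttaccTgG
P4HA1 upstream exon: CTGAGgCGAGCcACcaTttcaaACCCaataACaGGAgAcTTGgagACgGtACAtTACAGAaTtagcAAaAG
P4HA1 downstream exon: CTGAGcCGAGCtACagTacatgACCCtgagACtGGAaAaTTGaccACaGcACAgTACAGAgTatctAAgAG
RAB6A upstream exon: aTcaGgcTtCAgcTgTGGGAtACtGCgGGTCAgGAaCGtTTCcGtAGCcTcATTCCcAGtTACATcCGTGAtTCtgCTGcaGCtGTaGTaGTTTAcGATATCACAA
RAB6A downstream exon: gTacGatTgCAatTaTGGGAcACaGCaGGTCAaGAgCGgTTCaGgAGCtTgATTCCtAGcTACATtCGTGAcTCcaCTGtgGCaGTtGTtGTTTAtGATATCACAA

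DCRT-KO cells had more listed pairs than WT cells, and most pairs stood in 1 list only. After rows with the same positions were merged, 1949 distinct pairs remained in DCRT-KO and 1284 in WT, a ratio of 1.52 (1.41 to 1.63, an interval for counting error only). Pairs made up 4.70% (4.50 to 4.90%) of all DCRT-KO events and 3.71% (3.52 to 3.92%) of all WT events. The files give no reads or inclusion levels, so the sequencing depth is unknown here. As a substitute, all event tables together named 54197 library isoforms in DCRT-KO and 49374 in WT, a ratio of 1.10. With 1 library per genotype there is no test of the genotypes. All intervals, except those of medians, are exact (Clopper-Pearson) 95% intervals for counting error. All of them treat pairs as independent, although pairs of a gene share isoforms. A pair that 1 list lacks was not detected there and may still exist.

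Of 2899 distinct pairs in either list, 334 had identical positions in both. Shared pairs formed 17.1% (15.5 to 18.9%) of DCRT-KO pairs and 26.0% (23.6 to 28.5%) of WT pairs, and 1615 stood in DCRT-KO alone, against 950 for WT alone. At the level of genes, 1104 genes had a pair in DCRT-KO and 768 in WT. Of the 1496 genes with a pair in either list, 48.7% had one only in DCRT-KO, 26.2% only in WT and 25.1% in both. Most genes had 1 row, 64.5% of them in DCRT-KO and 69.5% in WT. Pairs were also linked to each other through a shared exon: 53.4% of DCRT-KO pairs and 53.2% of WT pairs shared no exon with another pair, and the largest linked group held 22 pairs in DCRT-KO and 19 in WT.

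Exclusion was often not strict within a library. In 814 of 1949 DCRT-KO pairs (41.8%, 39.6 to 44.0%) and 443 of 1284 WT pairs (34.5%, 31.9 to 37.2%), another library isoform carried both exons. An isoform that skipped both was listed for 51.9% of DCRT-KO pairs and 52.6% of WT pairs. Neither kind of isoform was listed for 21.7% of DCRT-KO pairs and 25.2% of WT pairs. Such an isoform could be found only where both exons were listed as skipped, which held for 86.0% of DCRT-KO and 82.7% of WT pairs. For 10.7% of DCRT-KO and 13.5% of WT pairs no exon was listed as skipped. The shares with either kind of isoform are therefore lower bounds. Most of the exons were also listed as skipped exons, 2666 of 3125 distinct exons in DCRT-KO (85.3%) and 1694 of 2053 in WT (82.5%). The name mutually exclusive therefore describes the isoforms listed for each pair rather than all isoforms of the gene.

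The annotation separated these pairs into 4 classes. In the commonest class both exons belong to 1 annotated transcript of GENCODE v29, so that the annotation splices them together. It held 953 DCRT-KO pairs (48.9%, 46.7 to 51.1%) and 520 WT pairs (40.5%, 37.8 to 43.2%), and the exons were consecutive in that transcript in 93.3% of the DCRT-KO and 92.9% of the WT pairs. In this class a library isoform carried both exons for 75.9% of DCRT-KO pairs and 72.3% of WT pairs.

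Pairs whose exons are annotated only in separate transcripts numbered 214 in DCRT-KO (11.0%, 9.63 to 12.5%), against 182 in WT (14.2%, 12.3 to 16.2%), and here a library isoform with both exons was listed for 13.6% of DCRT-KO pairs and 16.5% of WT pairs. An isoform that skipped both was listed for 62.1% of DCRT-KO pairs and 64.8% of WT pairs of this class, above the shares over all pairs. Both exons were coding in 44 of the 214 DCRT-KO pairs (20.6%) and 34 of the 182 WT pairs (18.7%). In 498 DCRT-KO pairs (25.6%) and 384 WT pairs (29.9%) 1 of the exons was annotated. In 284 DCRT-KO pairs (14.6%) and 198 WT pairs (15.4%) neither exon was annotated.

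**Figure D1:**
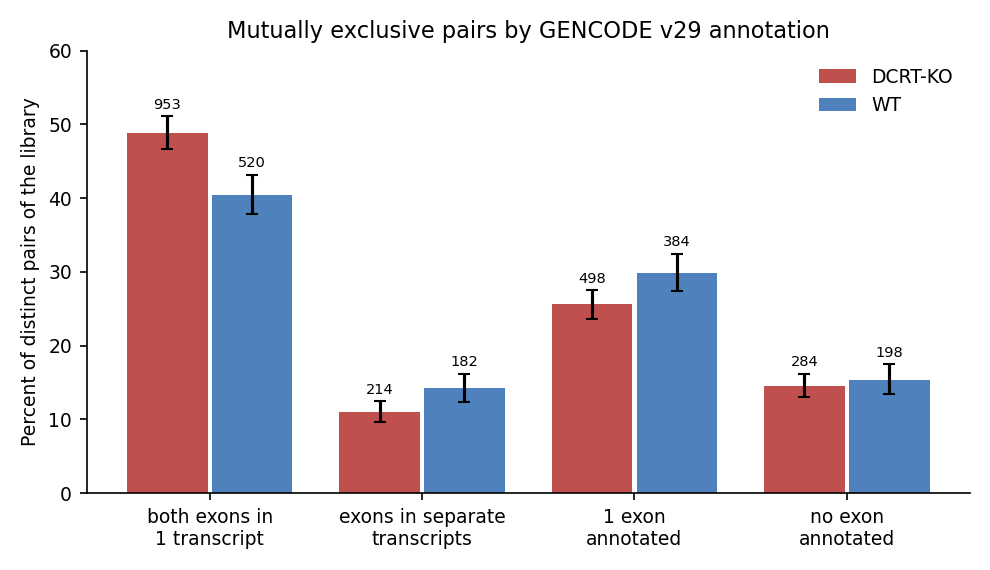
Percent of the distinct pairs of each library (y axis) in 4 classes of annotation in GENCODE v29 (x axis), with DCRT-KO in red and WT in blue; bars show the share, whiskers the exact 95% interval for counting error, and numbers above the bars the pairs. Both exons lay in 1 annotated transcript in 48.9% of DCRT-KO and 40.5% of WT pairs, and the other 3 classes took larger shares in WT.

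The excess of pairs in DCRT-KO differed in size between the classes. The DCRT-KO count over the WT count was 1.83 (1.65 to 2.04) for pairs in 1 annotated transcript, 1.18 (0.960 to 1.44) for pairs in separate transcripts, 1.30 (1.13 to 1.49) with 1 annotated exon and 1.43 (1.19 to 1.73) with none. The interval for separate transcripts includes 1. The classes also recurred to different extents: 80 pairs in separate transcripts stood in both lists, 37.4% of those of DCRT-KO and 44.0% of those of WT. Of pairs in 1 transcript, 20.5% were shared in DCRT-KO and 37.5% in WT. Where no exon was annotated, 14 pairs were shared, 4.93% of those of DCRT-KO and 7.07% of those of WT. An annotated transcript can carry a form in both lists, so pairs of annotated exons can recur with few or no library isoforms. How far the order of the classes reflects how pairs are listed was not tested. Recurrence by class with library isoforms required on both forms was not computed.

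Support was thin for most pairs. Exactly 1 library isoform on each form was listed for 859 DCRT-KO pairs (44.1%) and 572 WT pairs (44.5%). At least 2 on each form were listed for 147 DCRT-KO pairs (7.54%, 6.41 to 8.81%) and 76 WT pairs (5.92%, 4.69 to 7.35%). For 89 DCRT-KO pairs (4.57%) and 59 WT pairs (4.60%) both forms were carried by annotated Ensembl transcripts without any library isoform. Annotated transcripts stood on both forms of 165 DCRT-KO pairs (8.47%) and 118 WT pairs (9.19%), and on neither form of 1245 DCRT-KO pairs (63.9%) and 789 WT pairs (61.4%).

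Across all pairs, of coding and other exons together, the lengths kept the reading frame about as often as those of consecutive coding exons. The lengths of both exons differed by a multiple of 3 in 771 DCRT-KO pairs (39.6%, 37.4 to 41.8%) and 512 WT pairs (39.9%, 37.2 to 42.6%). The same measure over 162545 consecutive coding exons of GENCODE v29 was 37.3%. The libraries thus had shares within each other's intervals, both slightly above the annotation. The annotation measure covers coding exons only. Where both exons of a pair were coding, the share was 49.5% (45.8 to 53.2%) in DCRT-KO and 54.4% (49.2 to 59.6%) in WT.

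Coding pairs lay above the annotation, and those in separate transcripts stood furthest from it. Of the latter, 37 of 44 DCRT-KO pairs (84.1%, 69.9 to 93.4%) and 26 of 34 WT pairs (76.5%, 58.8 to 89.3%) differed by a multiple of 3. Coding pairs in 1 transcript did so in 325 of 687 cases in DCRT-KO (47.3%, 43.5 to 51.1%), against 176 of 337 in WT (52.2%, 46.7 to 57.7%). Pairs of exons in the 5′ untranslated region, where no frame exists, did so in 28.9% of 121 DCRT-KO pairs and 34.2% of 117 WT pairs. Membership rests on annotated coding sequence, so the share describes the annotated transcripts as well as the libraries. The lists overlap in these pairs, 21 of the 57 found in either list standing in both.

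**Figure D2:**
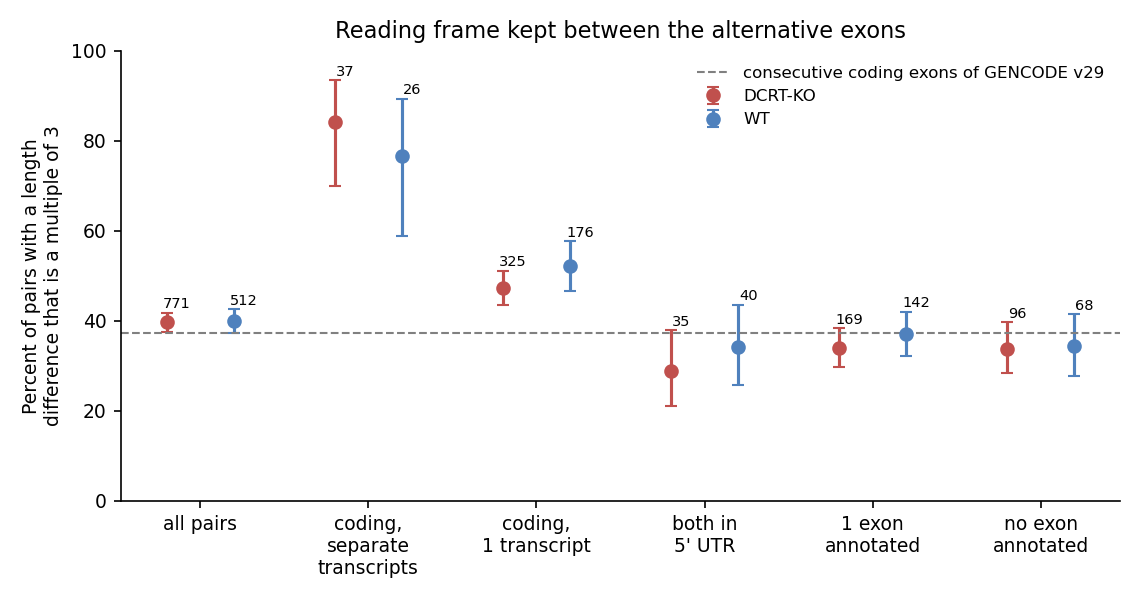
Percent of pairs whose exon lengths differ by a multiple of 3 (y axis) by class (x axis), for DCRT-KO in red and WT in blue; points are shares, whiskers exact 95% intervals for counting error, and numbers count the frame-keeping pairs. The dashed line is the 37.3% of consecutive coding exons of GENCODE v29, and the coding pairs in separate transcripts lie above it at 84.1% in DCRT-KO and 76.5% in WT.

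Many of these coding pairs had exons of equal length, and fewer had lengths that are themselves multiples of 3. Both exons had the same length in 16 of 44 DCRT-KO pairs (36.4%, 22.4 to 52.2%) and 13 of 34 WT pairs (38.2%, 22.2 to 56.4%). Coding pairs in 1 transcript had equal lengths in 3.78% of DCRT-KO and 4.75% of WT cases, and consecutive coding exons of GENCODE v29 in 1.51%. Both exons had a length that is a multiple of 3 in 12 of the 44 DCRT-KO pairs (27.3%) and 11 of the 34 WT pairs (32.4%). The PKM exons of 167 bases, for example, cannot be skipped without a shift of the frame but can replace each other.

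**Figure D3:**
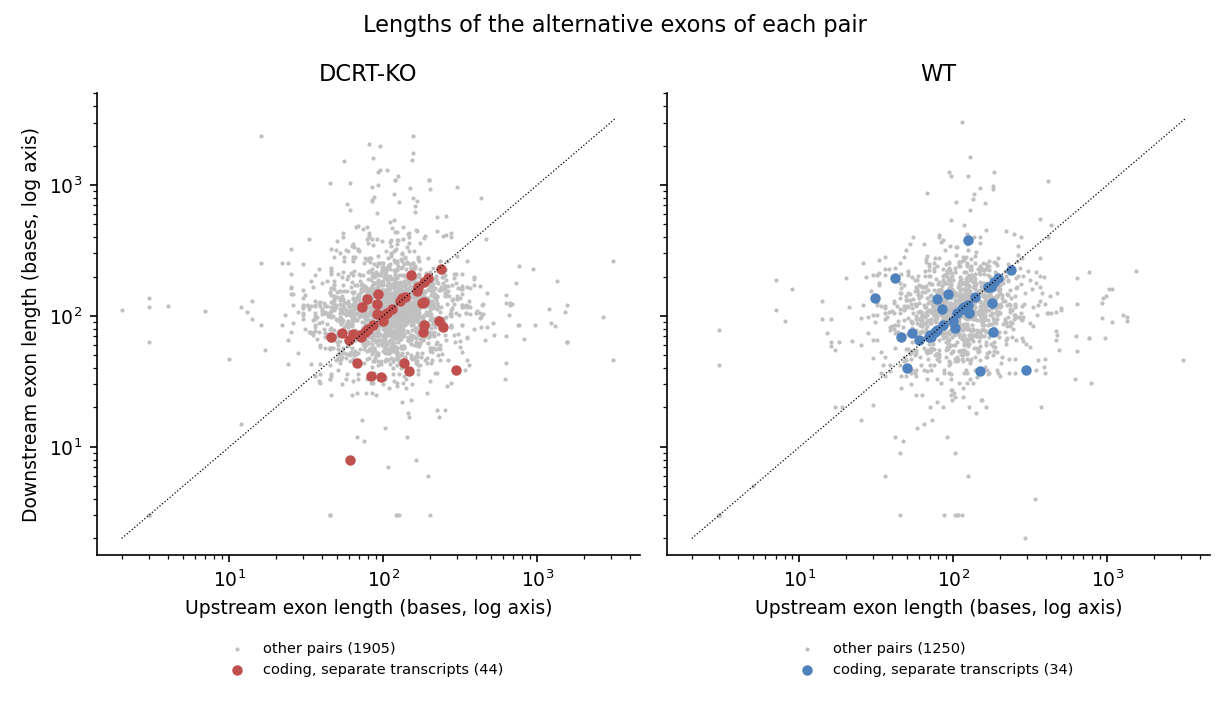
Length of the downstream exon against that of the upstream exon, in bases on log axes, for each distinct pair of DCRT-KO (left, coding pairs of separate transcripts in red) and WT (right, the same class in blue), with other pairs in grey; the dotted line marks equal lengths. Coding pairs of separate transcripts gather on the line, 16 of 44 in DCRT-KO and 13 of 34 in WT, while the grey points scatter around it.

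Among coding pairs of separate transcripts, sequence likeness went with equal length, and other classes were not split by length. Global alignment of the 1899 pairs with both sequences in GENCODE v29 gave a median identity of 41.3%. The 19 coding pairs of separate transcripts with equal length had a median of 64.6%, from 51.3 to 75.6%, and 14 of them reached 60%. Coding pairs of separate transcripts with unequal length had a median of 42.5%, close to the level of all pairs, and 3 of 37 reached 60%. Equal length was not used to align the exons, but exons of unequal length need gaps and so score lower. Among all pairs, 50 reached 60%, and 15 of these belonged to NBPF genes, whose repeated units are near copies of each other. The highest value, 100%, came from NBPF10, where the placement of an isoform on 1 repeat is uncertain.

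**Figure D4:**
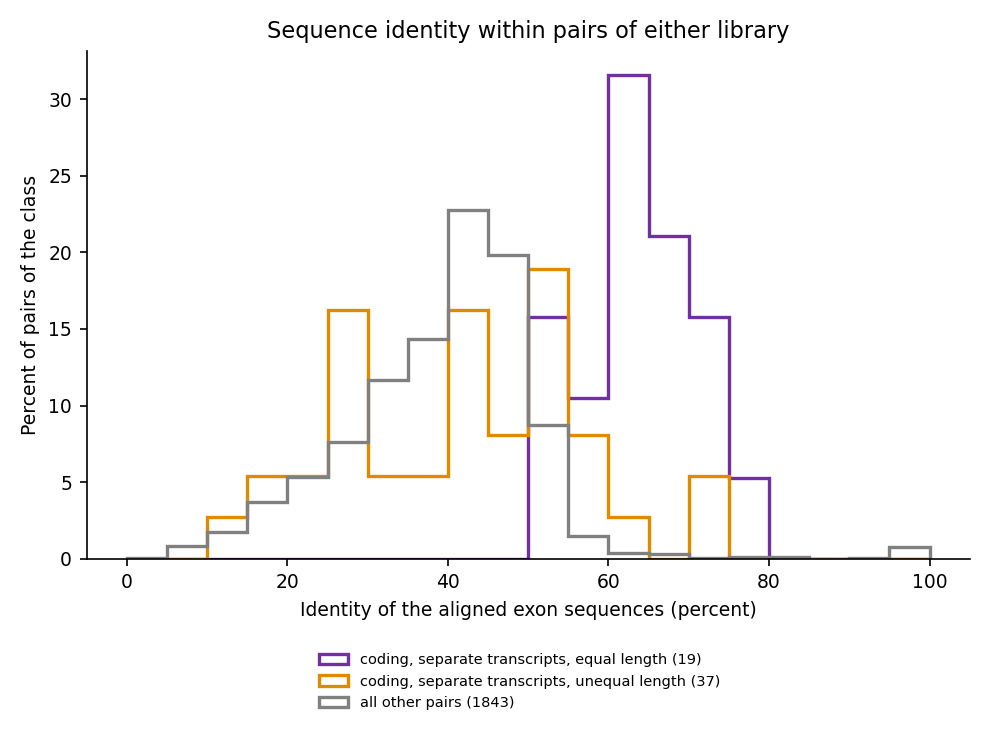
Distribution of the identity of the aligned exon sequences in steps of 5 percentage points (x axis), as percent of the pairs of each class (y axis), over the distinct pairs of either library. Equal-length coding pairs of separate transcripts (purple) lie between 51.3 and 75.6% identity. Their median of 64.6% is above the 42.5% of unequal-length coding pairs (orange), whose range overlaps. All other pairs are in grey.

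The PKM pair was the best covered of all coding pairs. In DCRT-KO, 16 isoforms carried the upstream M1 exon and 162 the downstream M2 exon, while in WT 7 carried the upstream and 142 the downstream exon. The upstream exon thus took 8.99% (5.23 to 14.2%) of the DCRT-KO isoforms and 4.70% (1.91 to 9.44%) of the WT isoforms. The DCRT-KO share was the higher, with intervals that overlap. A further 1 isoform had both exons in DCRT-KO and 1 in WT, and 4 in DCRT-KO and 0 in WT had neither. An isoform is a distinct structure and not a read, so these shares are not inclusion levels. Both libraries also paired the M1 exon with an exon of 36 bases at the end of the M2 exon, carried by 1 isoform in each.

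Cytoskeletal pairs were also well covered. ACTN4 had 29 upstream and 2 downstream isoforms in DCRT-KO, and 69 upstream and 3 downstream in WT. The upstream exon took 93.5% (78.6 to 99.2%) of the DCRT-KO isoforms and 95.8% (88.3 to 99.1%) of the WT isoforms, so both libraries lay on the same side. TPM2 had 2 upstream and 5 downstream isoforms in DCRT-KO, and 6 upstream and 2 downstream in WT. These TPM2 shares, 28.6% (3.67 to 71.0%) in DCRT-KO and 75.0% (34.9 to 96.8%) in WT, pointed to opposite exons, but their intervals overlap. A further 2 TPM2 isoforms in DCRT-KO and 2 in WT held both exons. TPM3, another tropomyosin, was listed in DCRT-KO alone, with 18 isoforms on the upstream exon alone, 0 on the downstream exon alone and 1 with both; an annotated transcript stood for the downstream form. Its exons at chr1:154172029-154172104 and chr1:154171413-154171488 have 76 bases each.

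TPM1 and ACTN1 fell into the class of 1 annotated transcript, since GENCODE v29 holds transcripts with both exons. The TPM1 exons at chr15:63061198-63061273 and chr15:63061713-63061788 have 76 bases each. They had 6 upstream and 0 downstream isoforms in DCRT-KO, against 8 upstream and 1 downstream in WT, with 5 WT isoforms that held both. A second TPM1 pair, of 126 bases per exon, was listed in WT alone with 2 upstream and 12 downstream isoforms. The ACTN1 pair was listed in WT alone with 43 upstream and 7 downstream isoforms, although 50 ACTN1 isoforms stood in the DCRT-KO tables and 73 in those of WT.

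Pairs of the secretory pathway included P4HA1 and P4HA2, subunits of the enzyme that hydroxylates collagen. P4HA1 had 2 upstream and 1 downstream isoform in DCRT-KO, and 1 upstream and 7 downstream in WT. The P4HA1 upstream share was 66.7% (9.43 to 99.2%) in DCRT-KO and 12.5% (0.316 to 52.7%) in WT, with overlapping intervals. P4HA2, with exons of 60 and 66 bases, had 2 upstream and 0 downstream isoforms in DCRT-KO, and 10 of each in WT. The P4HA2 tables named 4 isoforms in DCRT-KO and 24 in WT, so the DCRT-KO share rests on very few. Its shares of 100% (15.8 to 100%) in DCRT-KO and 50.0% (27.2 to 72.8%) in WT also have overlapping intervals. CALU had 4 isoforms of each form in DCRT-KO, and 15 upstream and 5 downstream in WT. A further 2 CALU isoforms in DCRT-KO and 1 in WT held both exons. For CALU the upstream share was 50.0% (15.7 to 84.3%) in DCRT-KO and 75.0% (50.9 to 91.3%) in WT, with overlapping intervals. COL5A1, a fibrillar collagen chain, had a pair of 69 bases per exon in WT alone, with 6 upstream and 2 downstream isoforms.

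Pairs of membrane traffic and lipid enzymes were supported by few isoforms. DNM2 had 3 upstream and 4 downstream isoforms in DCRT-KO, and 1 upstream and 0 downstream in WT. RAB6A had 3 upstream and 1 downstream in DCRT-KO, and 0 upstream and 2 downstream in WT. In ACSL1, which activates long-chain fatty acids, 7 upstream and 1 downstream isoform stood in DCRT-KO, against 2 upstream and 1 downstream in WT. None of these allows a choice between libraries, as the intervals span most of the range.

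**Figure D5:**
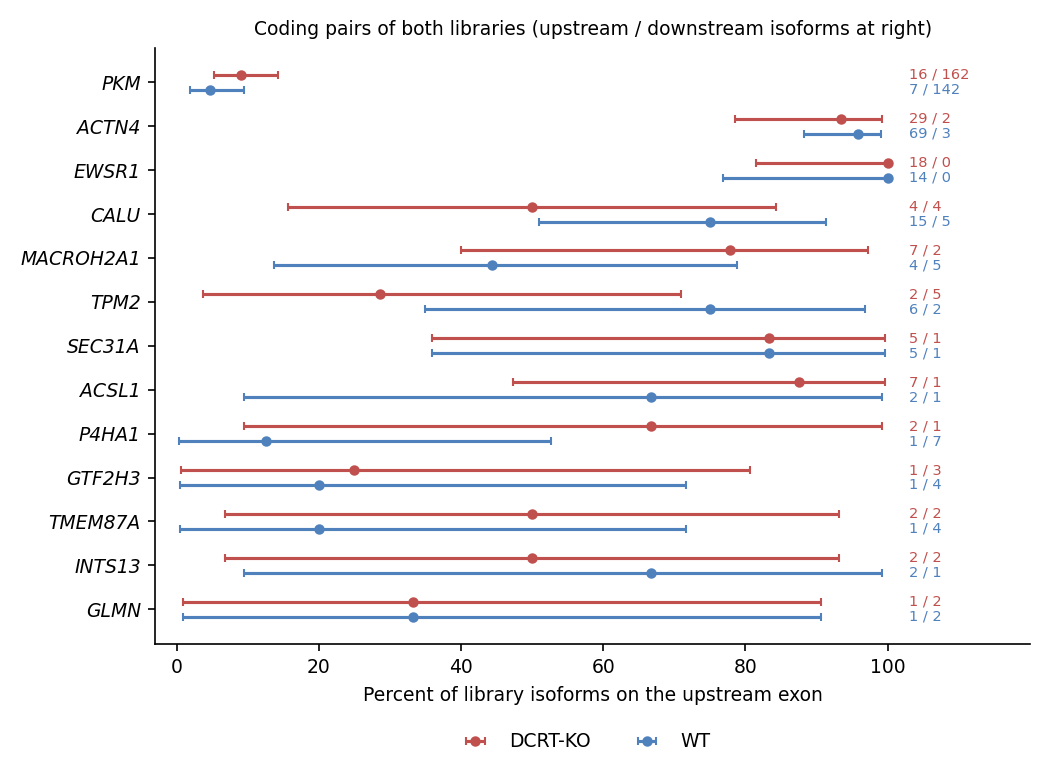
Percent of library isoforms on the upstream exon (x axis) for the coding pairs of separate transcripts listed in both libraries with at least 3 isoforms in each, 1 gene per row, DCRT-KO in red above WT in blue; whiskers are exact 95% intervals for counting error, and the numbers give upstream and downstream isoforms. PKM lies low in both libraries, at 8.99% in DCRT-KO and 4.70% in WT, ACTN4 lies high in both, and for every gene drawn the intervals of both libraries overlap.

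Of the protein kinases on the textbook list, none was listed in WT. MAPK8 and MAPK14, stress-activated kinases whose alternative exons alter the kinase domain, were listed in DCRT-KO alone, MAPK8 with 1 upstream and 3 downstream isoforms and MAPK14 with 0 upstream and 1 downstream. FYN, a tyrosine kinase whose exons give its brain and T-cell forms, had 1 isoform on each of its exons of 165 and 156 bases. The tables of WT named 0 isoforms of MAPK8, 1 of MAPK14 and 0 of FYN in any event, against 6, 1 and 2 in DCRT-KO. MAPK14 thus had as many isoforms in WT as in DCRT-KO.

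Nuclear proteins gave further pairs of the textbook kind. MACROH2A1, a histone variant, had 7 upstream and 2 downstream isoforms in DCRT-KO, and 4 upstream and 5 downstream in WT, on exons of 100 and 91 bases. MEF2A, a transcription factor of muscle differentiation, had 1 isoform on each exon in DCRT-KO alone. TCF3, whose exons encode alternative DNA-binding segments of E12 and E47, was listed in both libraries, but its downstream exon had 227 bases in DCRT-KO and 224 in WT. Its pairs therefore differ in 1 end and did not count as shared. TCF3 had 3 upstream and 1 downstream isoform in DCRT-KO, and 2 of each in WT. SLC25A3, the mitochondrial phosphate carrier, was listed in WT alone, with 0 isoforms on the heart and muscle exon upstream and 2 on the widely used exon downstream.

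A list of 33 genes with textbook mutually exclusive exons gave a wider view. Of these, 19 had an event of any type in DCRT-KO and 21 in WT, and 16 had a pair in DCRT-KO and 15 in WT. Over all genes with an event of any type, 1104 of 6727 (16.4%, 15.5 to 17.3%) had a pair in DCRT-KO and 768 of 6405 (12%, 11.2 to 12.8%) in WT. Among the 20 with a pair in either list, 5 had one only in DCRT-KO, 4 only in WT and 11 in both, where over all genes the shares were 48.7% for only DCRT-KO, 26.2% for only WT and 25.1% for both. The list was compiled with earlier results of these data known, and these counts describe it only. A coding pair of separate transcripts was among them for 14 genes in DCRT-KO and 11 in WT. Of the 13 genes with no pair, 9, among them FGFR2, FGFR3, CACNA1C, CACNA1D, SLC8A1 and ITGA7, had no event of any type in either library.

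Heart genes were hardly recorded in any event table. Of 13 cardiomyocyte markers, 0 had any event in DCRT-KO and 2 in WT. TNNT2, MYH6, MYH7, ACTN2, NPPA and TTN had none in either library, so the labelled cell type could not be read from its defining genes. Fibroblast markers had 3 events in DCRT-KO, against 501 in WT, and 0 mutually exclusive pairs in DCRT-KO and 28 in WT. The fibroblast events came from 2 of 8 markers in DCRT-KO and 5 of 8 in WT, and DCN and LUM had none in either library. Endothelial markers had 0 events in each library, smooth muscle markers 0 in DCRT-KO and 34 in WT, and epithelial markers 44 in DCRT-KO and 19 in WT. The smooth muscle events came from 2 of 4 markers in WT, and ACTA2 and MYH11 had none in either library. The epithelial events came from 2 of 5 markers in each library, and EPCAM, CDH1 and KRT19 had none. Whether the difference in fibroblast markers has a part in the lists was not tested, and fewer cells of a type cannot be told apart from less RNA per cell.

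COL1A1, which encodes a chain of type I collagen, carried most of the fibroblast pairs. It had 0 rows in DCRT-KO and 25 in WT, and the event tables named 1 COL1A1 isoform in DCRT-KO and 772 in WT. The gene was thus nearly unrecorded in DCRT-KO, and its WT pairs have no counterpart there. Its WT pairs used 39 distinct exons, of which 11 are annotated and 38 lie inside an annotated exon or equal it. The gap between the exons had a median of 243 bases and was as small as 6, the lengths kept the frame in 16 of 25 pairs, and 20 of the 39 exon lengths were multiples of 9, the length of a Gly-X-Y repeat in the gene.

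The repeat can be seen in COL1A1 exons that share their last base at chr17:50199226 on the minus strand, in GRCh38. There were 7 such exons in the WT pairs, of 102, 66, 52, 48, 35, 25 and 21 bases. The first is annotated and the others start inside it. In the 4 printed here the capitals mark GGN codons, which encode glycine, in the annotated reading frame, and each of the 4 begins with such a codon. The exons of 52, 35 and 25 bases do not start at a GGN codon.
COL1A1 exon of 102 bases: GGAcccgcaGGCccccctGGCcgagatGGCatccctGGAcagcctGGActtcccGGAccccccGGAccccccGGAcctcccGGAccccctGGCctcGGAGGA
COL1A1 exon of 66 bases: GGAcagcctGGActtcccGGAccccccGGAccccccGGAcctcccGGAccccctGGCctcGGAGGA
COL1A1 exon of 48 bases: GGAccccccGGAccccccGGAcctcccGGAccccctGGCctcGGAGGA
COL1A1 exon of 21 bases: GGAccccctGGCctcGGAGGA

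ANXA2, a calcium-dependent membrane-binding protein, was the gene with most rows in both libraries together. It had 25 rows in DCRT-KO and 23 in WT, with 14 pairs in both lists. Nearly all of these 14 had no library isoform on either form in DCRT-KO, where annotated transcripts alone carried both forms. Some had none in WT either, so the rank and the overlap of ANXA2 rest largely on annotated transcripts. Most involved the beginning of the gene: 22 of 24 DCRT-KO pairs and 17 of 20 WT pairs had an exon of the 5′ untranslated region. ARIH2, a ubiquitin ligase of the RING-between-RING type, had 25 rows in DCRT-KO and 7 in WT. All 6 WT pairs of ARIH2 recurred among its 20 DCRT-KO pairs, and 65 ARIH2 isoforms were named in DCRT-KO against 24 in WT. ARIH2 also had the longest exon of any pair, 3096 bases, which runs from its exon at chr3:48924718-48924839 to the end of the one at chr3:48927462-48927813.

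SHLD2, a subunit of the shieldin complex of DNA repair, had 24 rows in DCRT-KO and 6 in WT. In 20 of its 23 DCRT-KO pairs and 6 of its 6 WT pairs neither exon was annotated, and near-identical copies of the gene make its placement uncertain. RANGAP1, which activates the GTPase RAN in nuclear transport, had 13 rows in DCRT-KO and 12 in WT, but 0 pairs in common. HNRNPC, an RNA-binding protein of the spliceosome, had 11 rows in DCRT-KO and 2 in WT. RNF185, a ubiquitin ligase of the endoplasmic reticulum, had 9 rows in DCRT-KO and 0 in WT, and the non-coding SNHG17 had the same numbers.

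In some genes many rows combined few exons. TMBIM6, which limits cell death at the endoplasmic reticulum, had 5 rows in DCRT-KO and 19 in WT. In DCRT-KO its 5 pairs combined 4 exons, each carried by 1 isoform, while 29 isoforms lacked both exons of every pair. In WT its 19 pairs combined 7 exons, again with 1 isoform each, beside 32 isoforms without them. PLS3, an actin-bundling plastin, had 3 rows from 5 exons in DCRT-KO and 14 from 10 exons in WT, 13 of the 14 with neither exon annotated. CDH13, a cadherin, had 0 rows in DCRT-KO and 6 in WT from 4 exons. SEPTIN2, a filament-forming GTPase, had 7 rows from 7 exons in DCRT-KO and 10 from 7 exons in WT.

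In both libraries, 23 pairs had 2 or more isoforms on each form. Of these, 14 lay in 1 annotated transcript, 5 in separate transcripts, and 14 kept the frame. MELK, a kinase of dividing cells, gave such a pair on exons of 86 and 117 bases at chr9:36583627-36583712 and chr9:36589536-36589652. That pair had 4 upstream and 15 downstream isoforms in DCRT-KO, with 18 that held both, and 2 upstream and 12 downstream in WT, with 10 that held both. In NUMB, an inhibitor of Notch signalling, the exons lie in the 5′ untranslated region. There 13 upstream and 5 downstream isoforms stood in DCRT-KO, against 5 upstream and 4 downstream in WT. A further 19 NUMB isoforms in DCRT-KO and 9 in WT held both exons. ABCD4, a lysosomal cobalamin transporter, had a pair on exons of 119 and 128 bases. It had 5 upstream and 8 downstream isoforms in DCRT-KO, and 2 upstream and 6 downstream in WT. Both ABCD4 exons stood together in 8 isoforms in DCRT-KO and 8 in WT. Of the 23 pairs, 11 had more isoforms on the same exon in both libraries, 3 had more on opposite exons, and 9 had equal counts in at least 1 library. The pairs on opposite exons were those of TPM2, MACROH2A1 and GNAS, each with overlapping intervals. Some of the 23 pairs stood at the minimum. FRMD6 had 2 isoforms on each form in each library, beside 33 with neither exon in DCRT-KO and 31 in WT.

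The exons were close in size to the skipped segments of the same library, which include most of these exons. The remaining skipped segments were not measured apart. The median length of distinct exons was 112 bases in DCRT-KO and 111 in WT, against 115 in DCRT-KO and 114 in WT for all skipped segments. Lengths divisible by 3 made up 41.3% (39.6 to 43.1%) in DCRT-KO and 42.0% (39.9 to 44.2%) in WT, near the 41.2% of internal coding exons of GENCODE v29. Most exons had 30 to 300 bases, 93.5% in DCRT-KO and 92.5% in WT. In DCRT-KO 1613 of 3125 exons (51.6%, 49.8 to 53.4%) were annotated as coding, against 916 of 2053 in WT (44.6%, 42.5 to 46.8%). Exons of the 5′ untranslated region made up 9.89% (8.86 to 11.0%) in DCRT-KO and 13.3% (11.9 to 14.9%) in WT.

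The distance between the exons varied widely. The median gap was 3192 bases in DCRT-KO and 2807 in WT, with maxima of 177245 in DCRT-KO and 143933 in WT. Pairs in separate transcripts lay closer, at a median of 2112 bases in DCRT-KO and 2050.5 in WT, than pairs in 1 transcript, at 3311 in DCRT-KO and 3597.5 in WT. Some textbook pairs were closer still, with 401 bases between the PKM exons and 73 in CALU. Others lay further apart, with 2851 bases in DCRT-KO and 2854 in WT for TCF3, and 4121 for MAPK14 in DCRT-KO. RAB6A, which is not on the textbook list, had a gap of 66 bases. The smallest gaps leave no room for an intron: in 16 DCRT-KO pairs and 11 WT pairs the exons touch, as in RBBP7, a histone-binding protein, whose exons of 78 and 135 bases adjoin at chrX:16852550.

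Exons outside the annotation numbered 805 in DCRT-KO (25.8%) and 600 in WT (29.2%), and most of them had no annotated end. Of these, 458 in DCRT-KO (56.9%, 53.4 to 60.3%), against 351 in WT (58.5%, 54.4 to 62.5%) had new start and end positions and overlapped no annotated exon on their strand. A further 289 in DCRT-KO (35.9%) and 219 in WT (36.5%) shared 1 end with an annotated exon. Their lengths were divisible by 3 in 35.5% of DCRT-KO and 36.2% of WT cases, lower than the 48.0% of coding exons in DCRT-KO and 49.8% in WT. Pairs without any annotated exon recurred least, as the shares by class show, but annotated transcripts can make pairs of annotated exons recur.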

How the data were processed

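Per the submitters' processing notes, reads were aligned with minimap2 to hg38. Versions, isoform builder, event caller and filters: not given in the sources used here. The series' design text describes PacBio isoform sequencing and the labels' protocols strand-specific Illumina libraries, a conflict that could not be settled. Per the file headers, the deposited tables give for each event the chromosome, gene, isoforms of both forms and splice positions, which are coordinates and no measured level, and hold no read counts. Groups came from the genotype labels.

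Each row was split into its upstream and downstream exon and rows with identical positions were merged. Annotated transcripts carried their own form's exon in 99.2% of checks for DCRT-KO and 98.2% for WT against GENCODE v29, which holds 91.7% of the Ensembl transcripts named in DCRT-KO pairs and 93.6% of those in WT pairs. Isoforms with both or neither exon were read from the exon skipping and exclusive tables. An exon is coding if it lies within the coding sequence of an annotated transcript. Exons of 20 to 1500 bases inside annotated exons were aligned globally with Biopython 1.88 (match 1, mismatch -1, gap opening -3, extension -1). Python 3.11.15 and scipy 1.17.1 gave exact 95% intervals. The parsing was tested on simulated tables.

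Named genes are members of the list of 33 with a pair, the 8 genes with most rows, the 5 with the largest difference in each direction, up to 12 with pairs supported in both libraries, and the longest and most alike pairs; COL5A1, ACSL1, RAB6A and RBBP7 were chosen after their values were seen. The members, the lists and this rule were chosen with earlier results of these data known.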

Additional observations from a re-analysis of the deposited data

How the results depend on the processing

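Of 136 recomputed values, 97 stayed within the counting interval of the reported value (for counts, within 1.5 times) and 39 left it. Of the 97, 24 came from leaving out overlapping pairs, of which there were none, so these could not move. Requiring 2 or more library isoforms on each form moved 19 values and left 3. The shares below are percent of the pairs or exons left. With 2 or more library isoforms on each form, 117 genes in DCRT-KO and 68 in WT remained, and pairs were 0.464% of DCRT-KO and 0.279% of WT events. In that subset 30.3% of WT pairs were shared, frame was kept in 46.3% of DCRT-KO and 51.3% of WT pairs, and both exons lay in 1 transcript in 57.8% of DCRT-KO and 51.3% of WT pairs. Exon lengths were divisible by 3 in 39.5% of DCRT-KO and 45.9% of WT exons, and 87.8% of DCRT-KO and 92.5% of WT exons were listed as skipped. There the median WT exon had 94 bases, and the median gap was 2812 bases in DCRT-KO and 1239 in WT. No form was annotated in 56.5% of DCRT-KO and 47.4% of WT pairs, and both forms in 13.2% of WT pairs. With at least 3 isoforms on each form, 2.10% of DCRT-KO and 1.79% of WT pairs remained. With library isoforms on both forms, pairs were 3.91% of DCRT-KO and 3.00% of WT events, 13.4% of DCRT-KO and 20.9% of WT pairs were shared, and 36.5% of WT pairs lay in 1 transcript. In that setting 9.17% of DCRT-KO and 7.40% of WT pairs had 2 isoforms on each form, both forms were annotated in 2.31% of DCRT-KO and 2.14% of WT pairs, and none in 77.7% of DCRT-KO and 76.8% of WT pairs. Counting rows gave 9.46% of DCRT-KO rows with 2 isoforms on each form, and exons listed as skipped at 87.7% in DCRT-KO and 84.9% in WT. Without the 10 genes with most rows, pairs were 4.43% of DCRT-KO and 3.35% of WT events. With any shared exon as a match, 32.9% of DCRT-KO and 46.6% of WT pairs recurred. The cause of these moves was not tested beyond the smaller number of pairs left.

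For coding pairs of separate transcripts, 3 alternatives chosen after seeing the data gave frame shares of 76.7 to 85.7% in DCRT-KO and 65.2 to 76.5% in WT, lowest without the genes of the textbook list. No pair had overlapping exons, so that alternative changed nothing. The bases beside the exons were not examined, since no genome was used here. No paired analysis was possible because each genotype has 1 library and the labels carry no replicate number; leaving out a library leaves no comparison. Depth is unknown, and a pair needs an isoform or annotated transcript on each form, so the lists depend on how many isoforms of a gene were named.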

Other observations

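Further genes of the textbook list appeared with pairs of other kinds. SNAP25, a fusion protein of synaptic vesicles, had 0 rows in DCRT-KO and 4 in WT. Its known pair of 118 bases per exon was listed from annotated transcripts alone, and the other 3 WT pairs combined 3 exons outside the annotation with 1 isoform each. U2AF1, which recognises the acceptor site of introns, had a pair of 67 bases per exon in WT alone, with 1 isoform on each form, and no isoform in any DCRT-KO table. SLC39A14, a zinc and manganese transporter, had 1 row in DCRT-KO and 3 in WT, all with an exon outside the annotation, and its known coding pair was not among them. In PI4KB, a lipid kinase of the Golgi, 11 upstream and 2 downstream isoforms stood in DCRT-KO, against 7 upstream and 3 downstream in WT. Rows without a gene identifier numbered 18 in DCRT-KO and 4 in WT.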
